A study of Mus musculus with 4 samples.

Results

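The MDSCs of mice treated with the peptide FR17 were compared with those of control mice that received no peptide (Ctrl), with 1 library of mRNA for each. These are 2 of the 4 libraries of the series, and the other 2 come from mice given TP5 or sFD17. Of the 54532 genes in the count table, the 16369 with at least 10 counts in at least 1 of the 4 libraries entered the comparison. The difference of a gene is its log2 fold change, the log2 of its level in FR17 minus that in Ctrl, with a prior count of 2. Levels are in CPM, counts scaled to the total of the library with the TMM method. Genes are described by functional class, and classes include genes with high counts that moved by less than 2-fold.

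All 4 groups were C57BL/6 mice of 6 to 8 weeks that carried the model of the pre-metastatic niche (PMN), the Ctrl group included. Medium conditioned by the mouse melanoma line B16F10 (MCM) was given into the peritoneum at 300 μl per mouse for 10 days, and B16F10 cells were injected into the tail vein on day 7. Peptides were injected under the skin from day 3 at 40 μM/kg per day, and lungs were taken on day 10. TP5 is thymopentin, a short peptide that acts on immune cells. FR17 carries TP5 on a self-assembling peptide through a linker that the protease MMP2 cuts, and sFD17 carries a scrambled version of TP5 on the same assembling part. CD11b+Ly6g+ cells were sorted from the pooled lungs of 10 to 12 mice, so a library is 1 pool and not 1 animal.

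Myeloid-derived suppressor cells (MDSCs) of the CD11b+Ly6g+ kind belong to the neutrophil lineage. Neutrophils load their granules in waves as they mature in the bone marrow, beginning with the primary granules, and acquire chemokine and cytokine receptors late. In tumor-bearing hosts such cells gather in the lung, where they can restrain T cells by producing adenosine or prostaglandin E2, and by displaying ligands such as PD-L1. Once activated they release IL-1β and chemokines under the control of NF-κB.

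With 1 library per group there was no replicate check of any difference. No p-value is given, and every interval below is a 95% interval for the counting error of a pair of counts. A gene is said to have risen or fallen where it passed 2-fold, or 1.5-fold at a mean of at least 50 CPM, and is otherwise given by its value. The libraries held 17132880 counts for Ctrl and 19638228 for FR17, and 15543071 to 17165184 for the other 2. A level of 3 counts corresponded to 0.178 CPM in Ctrl and 0.131 CPM in FR17. The median log2 fold change of all genes was 0.02 after TMM scaling and 0.26 with library size alone, a shift of 0.24. Directions of classes are therefore relative to the median gene, and a gene less than 0.24 below 0 would change its sign under library size alone. A fall of a well-expressed gene that is smaller than 0.82 on the log2 scale would then no longer pass 1.5-fold. In pooled cells, fewer cells of a type and less RNA per cell cannot be told apart.

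The sorting markers were present in both libraries. Itgam, which encodes CD11b, had 302 CPM in FR17, 381 in Ctrl, 370 in TP5 and 433 in sFD17. The annotation shares 68.7% of its exon bases with another gene on the same strand. Ly6g had 90.7 CPM in FR17, 73.0 in Ctrl, 97.8 in TP5 and 111 in sFD17. Of 18 markers of granulocytes and neutrophils, 8 were above and 10 below Ctrl, and the median log2 fold change was −0.05. Their summed level was 36731 CPM in Ctrl and 32267 in FR17.

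Genes with high counts were lower in FR17. Over all genes, 8554 (52.3%) were higher and 7815 (47.7%) lower than in Ctrl. At 2-fold, 641 genes (3.92%) were higher and 586 (3.58%) lower. Most of these had few reads, and 470 of the 641 and 408 of the 586 had under 50 counts in both libraries. Among the 3267 well-expressed genes, those with a mean of at least 50 CPM in FR17 and Ctrl, the balance was different. There the median log2 fold change was −0.20, and 422 genes (12.9%) were at least 1.5-fold lower against 17 (0.520%) at least 1.5-fold higher. FR17 was also the lowest of the 4 libraries for 417 of the 422, and the highest for 14 of the 17. With library size alone the same thresholds gave 116 well-expressed genes lower and 171 higher. Over all genes that scaling gave 316 at least 2-fold lower and 1091 at least 2-fold higher. Both balances are therefore statements relative to the median gene.

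The difference followed the level of the gene. The median log2 fold change was 0.13 for the 3865 genes with 5 to 20 CPM, 0.00 for 20 to 50 CPM, −0.15 for 50 to 200 CPM and −0.32 for 200 to 1000 CPM. It reached −0.49 for the 120 genes with at least 1000 CPM, of which 52 were at least 1.5-fold lower. TP5 and sFD17, compared with the same Ctrl library, had medians of −0.12 and 0.26 in that highest range. The length of the gene made a smaller difference, from 0.06 for the shortest genes to −0.06 for the longest. For this reason class medians are also plotted, and given for most of the main classes, relative to the tested genes in the same range of mean CPM, a comparison added after the data were seen. Of the 58 classes, 27 had a median above the median gene by both references and 21 lay below it by both. The other 10 were below the median gene but above genes of the same level.

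**Figure D1:**
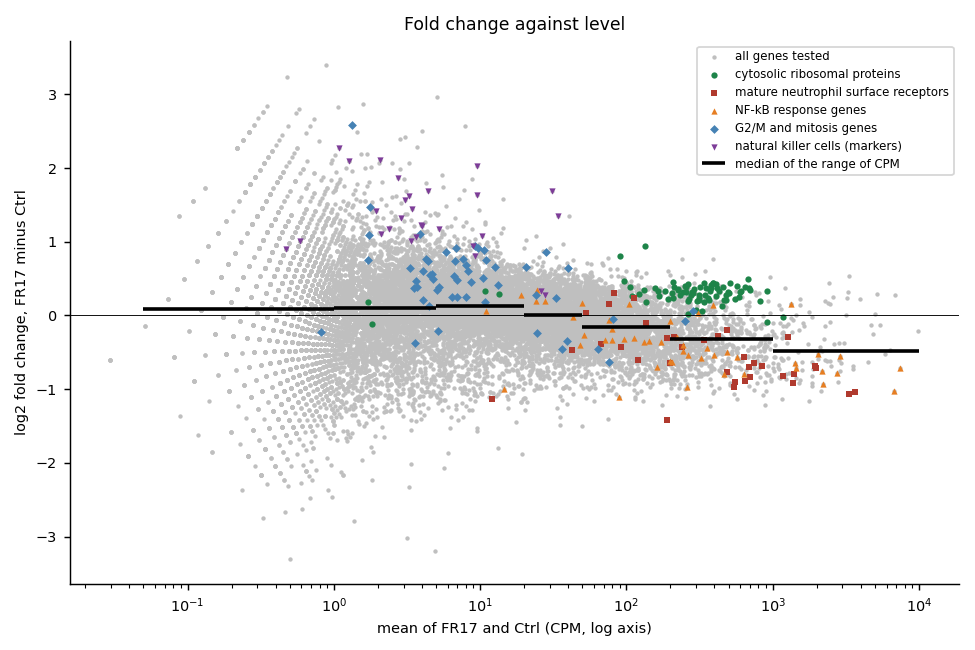
Log2 fold change of FR17 minus Ctrl (vertical axis) against the mean of FR17 and Ctrl in CPM (horizontal log axis), 1 point a gene, with black bars for the median in each range of CPM. The bars go from 0.13 at 5 to 20 CPM to −0.49 at 1000 CPM and over. Most ribosomal protein genes (green) lie above the bar at their level, and most neutrophil receptors (red) below it.

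Receptors of mature neutrophils had the lowest median of the 58 classes, although relative to genes of the same level suppressive effectors (−0.36) and S100 and stefin genes (−0.32) were lower. Of 35 members tested, 31 were lower and 4 higher in FR17, 19 were at least 1.5-fold lower (11.7% of all genes were) and 0 at least 1.5-fold higher (11.0%). The median was −0.65, and −0.31 relative to genes of the same level. FR17 had the lowest of the 4 values for 29 of the 35, where 31.5% of all genes had their lowest value in FR17 and 33.2% their highest. At this level of expression such values were commoner, and 60.7% of well-expressed genes were lowest in FR17 and 21.4% of genes with 200 to 1000 CPM were at least 1.5-fold lower. The 4 members that were not lower were Ly6g, Ly6c2, Ltb4r1 and Siglecf, chosen for mention after their values were seen.

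Il1rap, the shared signaling chain of the receptors for IL-1, IL-33 and IL-36, fell most among them. It had 276 CPM in Ctrl, 176 in TP5, 353 in sFD17 and 103 in FR17, a log2 fold change of −1.41 (−1.49 to −1.34). FR17 was the lowest library, with TP5 next. Il1rap lies on chromosome 16 from 26581704 to 26730117 of GRCm38 (ENSMUSG00000022514, plus strand). Csf3r, the receptor for G-CSF, the factor that drives production of neutrophils, lies on chromosome 4 from 126024550 to 126044440 (ENSMUSG00000028859, plus strand). It had 4952 CPM in Ctrl, 3571 in TP5, 5947 in sFD17 and 2409 in FR17, a log2 fold change of −1.04 (−1.05 to −1.02). The order of the 4 libraries was that of Il1rap.

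The chemokine receptor Cxcr2, through which neutrophils leave the marrow and enter inflamed tissue, showed the same order. Its levels were 839 CPM in Ctrl, 610 in TP5, 1052 in sFD17 and 454 in FR17, a log2 fold change of −0.88. Cxcr1, its relative, had 16.5, 11.6, 15.8 and 7.45 CPM with a log2 fold change of −1.14 (−1.43 to −0.87). The surface receptors Cd33 and Cd300lf fell by 0.97 and 0.90. Lilr4b fell by 1.07 and Lilrb4a by 0.92, but these genes are near copies of each other and their reads may be split unevenly. Ptafr, the receptor for platelet-activating factor, fell by 0.84, Trem1, an amplifier of inflammation, by 0.69, and C5ar1, the C5a receptor, by 0.68. Il1r2, the decoy receptor for IL-1, fell by 0.72. The sequence GAGGAAG, which PU.1 and other ETS factors bind, stood in 20 of 34 promoters of this class (58.8%) against 13.6% of all RefSeq promoters, on either strand from 250 bases before to 50 after the start. This share was not compared with the fold changes of the members. Formyl peptide receptors and Fcgr4 were closer to 0, between −0.31 and −0.10.

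Most S100, stefin and Slfn genes of neutrophils were lower too, but the main alarmins moved little. Of 16 S100, stefin and Slfn genes, 15 were lower, with a median of −0.57. At least 1.5-fold lower were 8 (11.7% of all genes, 8.73% at 50 to 200 CPM). Slfn4 fell by 1.13, from 1599 CPM in Ctrl to 731 in FR17, and had 1259 in TP5 and 7447 in sFD17. Slfn1 fell by 0.77. The alarmin subunits S100a8 and S100a9 moved less, with log2 fold changes of −0.13 and −0.21. S100a10, a partner of annexin A2, was the exception and rose by 0.60, from 93.8 to 143 CPM.

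Granule proteins, which are made before the cell matures, were closer to the median gene. The 22 genes of secondary and tertiary granules had 10 higher and 12 lower members and a median of −0.04, which is 0.22 above genes of the same level. FR17 was nevertheless the lowest library for 12 of them, since TP5 and sFD17 had medians of 0.21 and 0.46 against the same Ctrl library. Camp, the precursor of the antimicrobial peptide CRAMP, had 790 CPM in Ctrl, 1465 in TP5, 1117 in sFD17 and 1139 in FR17, a log2 fold change of 0.53 (0.50 to 0.56). Ltf (lactoferrin) and Ngp (neutrophilic granule protein) had log2 fold changes of 0.44 and 0.31, and Lcn2 0.16. For these genes Ctrl was the lowest library and TP5 or sFD17 the highest. Chil3, a chitinase-like protein of neutrophils and alveolar macrophages, went from 2718 CPM in Ctrl to 3952 in FR17 (log2 fold change 0.54), with 2694 in TP5 and 974 in sFD17. Slpi, a protease inhibitor, fell instead, from 1425 to 801 CPM.

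Primary granule genes were tested for 11 of 12 members, of which 9 were higher and 2 lower, with a median of 0.39. Without members under 5 CPM the median relative to all genes went from 0.36 to 0.22. Mpo (myeloperoxidase) had 2.25 CPM in Ctrl, 8.44 in TP5, 5.68 in sFD17 and 6.14 in FR17. Ctrl stood below the 3 peptide libraries, and its log2 fold change was 1.41 (0.92 to 2.01). Elane (neutrophil elastase) had 2.07, 5.19, 4.47 and 3.96 CPM in the same order with a log2 fold change of 0.90 (0.36 to 1.54). Both rest on low counts, while Lyz2 (lysozyme) was abundant at 6253 CPM in Ctrl and 7552 in FR17, and Srgn, a granule proteoglycan, fell by 0.73.

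Effectors by which MDSCs restrain other cells were mostly lower. Of 26 listed genes 25 were tested, 22 were lower and 3 higher, 10 were at least 1.5-fold lower (11.7% of all genes) and 0 at least 1.5-fold higher (11.0%). The median was −0.47, and −0.36 relative to genes of the same level. Entpd1 encodes CD39, which starts the conversion of ATP to adenosine. It had 1163 CPM in Ctrl, 934 in TP5, 1935 in sFD17 and 550 in FR17, a log2 fold change of −1.08 (−1.11 to −1.05). FR17 was the lowest and sFD17 the highest library. Nt5e, which completes the path to adenosine, was closer to the median gene and had 38.6 to 52.2 CPM in the 4 libraries.

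Ptgs2, the inducible cyclooxygenase on the path to prostaglandin E2, fell by 0.94, from 2894 to 1512 CPM, and TP5 (2759 CPM) and sFD17 (3817 CPM) lay near or above Ctrl. Vegfa, the main angiogenic growth factor, fell by 0.91 (222 to 118 CPM). Cd274, which encodes PD-L1, fell by 0.82, from 320 to 180 CPM, with 864 in sFD17. The annotation places 14.1% of its exon bases opposite a second gene, and whether the counting used strand is not given in the sources used here.

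Il10, Tgfb1 and Nos2, of the same list, did not show such differences. Il10 had 36.0 CPM in Ctrl and 35.6 in FR17, and Tgfb1 268 and 259. Nos2, which makes nitric oxide, was below 1 CPM in both. Stat3, a transcription factor active in MDSCs, fell by 0.67, from 618 to 387 CPM.

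Oxidant enzymes and antioxidants were tested for 31 genes, 22 lower and 9 higher, with a median of −0.21, which became 0.00 relative to genes of the same level. Cybb, the catalytic subunit of the phagocyte oxidase, had 667 CPM in Ctrl and 677 in FR17. Of the 31 genes, 4 were at least 1.5-fold lower, a share near the 11.7% of all genes. Slc7a11, the cystine importer that feeds glutathione synthesis, had the largest difference. It had 1233 CPM in Ctrl, 1175 in TP5, 2328 in sFD17 and 532 in FR17, a log2 fold change of −1.21 (−1.25 to −1.18), and FR17 was the lowest library by more than 2-fold. Gsr, which regenerates glutathione, and Nfe2l2, the transcription factor NRF2, fell by 0.72 and 0.70.

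**Figure D2:**
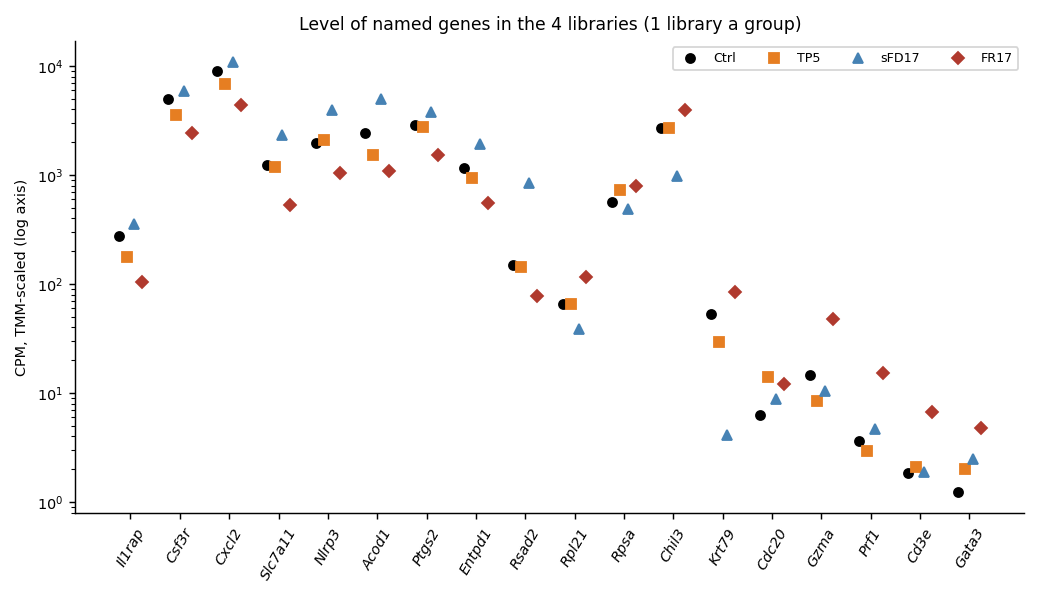
Level in TMM-scaled CPM (log axis) of 18 named genes in the 4 libraries, 1 point per library and no error bars because each group has 1 library. From Il1rap to Rsad2, the FR17 point is the lowest of the 4. For the genes from Gzma to Gata3 it is the highest, at levels of 4.79 to 47.5 CPM.

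Inflammatory genes with high counts were lower as a group. Of 49 NF-κB response genes, 39 were lower and 10 higher, 15 were at least 1.5-fold lower (11.7% of all genes, 21.4% at 200 to 1000 CPM) and 0 at least 1.5-fold higher (11.0%). FR17 was the lowest library for 35, as for 60.7% of well-expressed genes. The median was −0.40, and −0.17 relative to genes of the same level. TP5 and sFD17, against the same Ctrl library, had medians of −0.07 and 0.46. Cxcl2, a chemokine that attracts neutrophils through CXCR2, had 9017 CPM in Ctrl, 6897 in TP5, 10829 in sFD17 and 4409 in FR17, a log2 fold change of −1.03 (−1.04 to −1.02). Cxcl3, its neighbour on chromosome 5, had 122, 63.6, 106 and 56.3 CPM in that order with a log2 fold change of −1.11. In FR17 both were at their lowest, with TP5 next.

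NF-κB binds sites searched here as GGG, 2 bases of any kind and TTTCC, on both strands, close to the start of such genes. RefSeq promoters, from 250 bases before to 50 after the start on GRCm38.p6, were found for 39 of the 49 genes. Of their 47 promoters 14 (29.8%) held the motif, against 1.63% of all 32851 promoters. These genes were listed for their known response to NF-κB, so a high share follows from the choice of the list. It was not compared with the fold changes. A match is a match of letters and was not tested as a binding site. The promoters of Cxcl2 and Cxcl3 are shown because both genes fell more than 2-fold and both hold it. The 150 bases before each start follow, at chr5:90903749-90903898 and chr5:90785951-90786100 on the plus strand, with the motif in capitals.
Cxcl2: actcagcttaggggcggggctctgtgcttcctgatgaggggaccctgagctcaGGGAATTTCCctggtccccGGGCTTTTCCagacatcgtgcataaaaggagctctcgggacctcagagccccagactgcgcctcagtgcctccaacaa
Cxcl3: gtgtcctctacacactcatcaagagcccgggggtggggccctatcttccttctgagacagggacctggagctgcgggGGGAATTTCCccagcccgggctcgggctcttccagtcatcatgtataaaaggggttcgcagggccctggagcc
The Cxcl2 window holds 2 matches and the Cxcl3 window 1.

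Further members were the feedback inhibitors Nfkbia and Nfkbiz, with log2 fold changes of −0.55 and −0.75, and Birc3, a survival factor, which fell by 0.80. Il1b, the cytokine IL-1β, fell by 0.72, from 9265 to 5630 CPM, with 7630 in TP5 and 12994 in sFD17. Csf1, the macrophage growth factor, fell by 0.98 (344 to 175 CPM). Tnf did not follow, with 304 CPM in Ctrl, 358 in TP5, 648 in sFD17 and 312 in FR17. Ccl3 and Icam1 had log2 fold changes of −0.50 and −0.40.

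The IL-1 family and its receptors, 20 genes tested of 23 listed, had 13 lower and 7 higher members, 8 of them at least 1.5-fold lower (11.7% of all genes), and a median of −0.37, or −0.22 relative to genes of the same level. Beside Il1rap and Il1b, the agonist Il1f9 (IL-36γ) fell by 0.98, from 410 to 208 CPM, and Il18rap, the accessory chain of the IL-18 receptor, by 0.93. The antagonist Il1rn fell by 0.80, so agonists, decoy and antagonist were lower together. Among 22 inflammasome and pyroptosis genes 13 were lower (47.7% of all genes) and 9 higher, 6 at least 1.5-fold lower (11.7%) and 1 at least 2-fold higher (3.92%), with a median of −0.26, or −0.18 relative to genes of the same level. Nlrp3, the sensor of the best known inflammasome, had 1969 CPM in Ctrl, 2082 in TP5, 3958 in sFD17 and 1041 in FR17, a log2 fold change of −0.92 (−0.94 to −0.90). Nlrp12 and Mefv, further members of this class, fell by 0.92 and 0.87. Downstream of the sensors, Casp1 had 45.0 and 48.1 CPM and Gsdmd 143 and 124 CPM in Ctrl and FR17.

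Receptors that sense microbes were mixed. Of 26 Toll-like receptors and adaptors 19 were lower, with a median of −0.24. Tlr6 fell by 1.01 (99.9 to 49.5 CPM), and Irak2 by 0.70, while the adaptor Myd88 and Tlr2 had log2 fold changes of −0.51 and −0.24. C-type lectin receptors had 14 higher and 10 lower of 24, with a median of 0.10, but Clec4e and Clec4d, which neutrophils use to detect glycolipids, fell by 0.82 and 0.79, and Clec7a, the β-glucan receptor, by 0.61. Fc receptors had 10 higher and 4 lower of 14 tested and a median of 0.21. Of these 5 are also markers of other cell types, and without them the median relative to all genes went from 0.19 to 0.03.

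Immediate early genes, which are switched on within minutes of a stimulus and also by cell sorting, had 31 lower and 6 higher of 37 and a median of −0.37, which turned to 0.03 relative to genes of the same level. Per1, Csrnp1 and Fosl2 fell by 0.86, 0.74 and 0.73, and Fosb by 0.68. Fos and Nr4a1 had log2 fold changes of −0.38 and −0.31. Among 23 phosphatases and feedback inhibitors of MAP kinases 14 were lower (median −0.22, and −0.05 relative to genes of the same level), with Dusp1 falling by 0.63, from 5466 to 3528 CPM.

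Chemokines of the CC kind stood apart from this, with 12 of 18 tested higher, 6 lower and a median of 0.37. Ccl7, a monocyte attractant, rose by 0.69, from 43.7 to 70.7 CPM, while TP5 had 22.8 and sFD17 9.24 CPM. Ccl5, a product of T and natural killer cells, rose by 1.34, from 22.9 to 58.3 CPM, with 42.0 in sFD17. Of the 18 genes 3 are also markers of other cell types, and the median relative to all genes was 0.35 with them and 0.36 without. Ccl2 had a log2 fold change of 0.38 and Ccl17 of 0.91 (20.9 to 39.3 CPM). Ccl6, made by neutrophils and macrophages, had 1625 and 1418 CPM. The 13 CXC chemokines tested had 9 higher and 4 lower, mostly at low counts, and a median of 0.08.

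Interferon-stimulated genes were below Ctrl in FR17. Of 56 type I interferon-stimulated genes 55 were tested, 44 were lower and 11 higher, 12 were at least 1.5-fold lower (11.7% of all genes) and 0 at least 1.5-fold higher (11.0%). The median was −0.35, and −0.29 relative to genes of the same level, and FR17 was the lowest library for 38 (31.5% of all and 60.7% of well-expressed genes). Rsad2, the antiviral enzyme viperin, had 148 CPM in Ctrl, 144 in TP5, 838 in sFD17 and 77.8 in FR17, a log2 fold change of −0.93 (−1.02 to −0.84). Oasl2, a sensor relative, had 255, 175, 942 and 121 CPM with a log2 fold change of −1.08. Isg15, a ubiquitin-like modifier, fell by 0.70, from 180 to 111 CPM. In each of these sFD17 was the highest library and FR17 the lowest.

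Ifitm1, an antiviral membrane protein that basophils also carry, fell by 1.23, from 523 to 222 CPM. Irf7 and Ifit1 had log2 fold changes of −0.36 and −0.56, while Zbp1 had 36.6 CPM in Ctrl and 35.1 in FR17, and Bst2 went the other way with 0.42. Interferons act through the ISRE, searched here as TTTC, 2 bases of any kind and TTTC, on both strands. Of 52 promoters found for 43 of the 55 genes, 29 (55.8%) held it, against 3.44% of all promoters. The list holds known interferon targets, so this share too follows from its choice and was not compared with the fold changes. Rsad2 is shown as the member with the values given above, by the 150 bases before its start at chr12:26456453-26456602 on the minus strand, with the match in capitals.
Rsad2: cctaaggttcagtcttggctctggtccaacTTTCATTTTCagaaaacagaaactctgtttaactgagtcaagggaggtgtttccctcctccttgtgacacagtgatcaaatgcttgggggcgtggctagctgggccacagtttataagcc
This window holds 1 match.

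Genes of the interferon-γ response were nearer to the median gene, with 20 of 32 tested lower and a median of −0.16. Irf1 and Gbp9 had log2 fold changes of −0.48 and −0.65, and Gbp genes are close copies of each other. MHC class I presentation was split evenly, 12 higher and 12 lower, with a median of −0.01. H2-D1, a classical class I heavy chain, had 5293 CPM in Ctrl and 4446 in FR17. MHC class II presentation had 16 higher and 1 lower of 17, a median of 0.21 and 0.40 relative to genes of the same level, with H2-Ab1 at 2349 and 2791 CPM. Dendritic cells, B cells and macrophages carry these genes, and their markers were higher for 15 of 18 (dendritic cells), 26 of 28 (B and plasma cells) and 21 of 22 (interstitial macrophages), with medians of 0.42, 0.41 and 0.25. The part of such cells in the class II values was not tested. The lower gene of the class II list was the costimulator Cd80, which fell by 0.85, from 194 to 108 CPM. TP5 had the higher class II levels, with 3115 CPM for H2-Ab1.

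Glycolysis genes as a class followed the level of their genes. Of 30 such genes 24 were lower and 6 higher, with a median of −0.14 that was −0.01 relative to genes of the same level. The 4 members at least 1.5-fold lower, a share near the 11.7% of all genes, carry sugars or lactate across membranes. Slc2a3, the neutrophil glucose transporter GLUT3, had 1153 CPM in Ctrl, 970 in TP5, 1586 in sFD17 and 615 in FR17, a log2 fold change of −0.91 (−0.94 to −0.88). Slc2a1 (GLUT1) fell by 0.88, from 326 to 178 CPM, and Slc16a3, which exports lactate, by 0.59. The abundant enzymes Pkm and Ldha had log2 fold changes of −0.30 and −0.09, while Aldoc, an aldolase with few reads, had 0.85 (7.10 to 12.9 CPM).

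Among 26 hypoxia response genes tested 18 were lower (median −0.19), and Ankrd37 fell by 1.26, from 6.22 to 2.53 CPM. Hcar2, a receptor for niacin and ketone bodies on neutrophils, fell by 0.96, from 2471 to 1268 CPM. P2ry2, through which neutrophils respond to ATP, fell by 1.07 (59.0 to 28.0 CPM). Acod1 makes itaconate, a metabolite of activated myeloid cells. It had 2442 CPM in Ctrl, 1524 in TP5, 4992 in sFD17 and 1090 in FR17, a log2 fold change of −1.16 (−1.19 to −1.14).

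Iron genes had 15 lower and 10 higher of 25 tested and a median of −0.10, which turned to 0.05 relative to genes of the same level. Steap4, an iron and copper reductase, had 108 CPM in Ctrl, 44.4 in TP5, 123 in sFD17 and 40.9 in FR17, a log2 fold change of −1.40 (−1.52 to −1.29), so TP5 and FR17 were alike and low. Slc40a1 (ferroportin) and Slc11a1, transporters that move iron out of the cell and the phagosome, fell by 0.86 and 0.80. Fth1, the ferritin heavy chain, had a log2 fold change of −0.52. Gla, a lysosomal galactosidase, fell by 1.12, from 350 to 161 CPM. The other lysosomal genes moved less. That class had 34 lower and 18 higher of 52, and its median of −0.06 was 0.12 above genes of the same level. Autophagy genes had 27 lower and 6 higher of 33 (median −0.25), with Ulk1, the kinase that starts autophagy, falling by 0.74.

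Cytokine receptors and JAK-STAT components had 26 lower of 39 and a median of −0.32, which was −0.05 relative to genes of the same level. Csf2rb, the shared chain of the GM-CSF, IL-3 and IL-5 receptors, fell by 0.70, from 685 to 423 CPM, while Jak2 and Socs3 had log2 fold changes of −0.50 and −0.45. The 49 actin and motility genes had 41 lower and a median of −0.18, which turned to 0.13 relative to genes of the same level. Msn (moesin) fell by 0.60, Tmsb10 (thymosin β10) rose by 0.61, and Actb had 4942 and 4509 CPM. The 34 integrins, selectins and adhesion molecules had 20 lower and 14 higher. Their median was −0.15, which turned to 0.03 relative to genes of the same level. At least 1.5-fold lower were 5 (11.7% of all genes) and at least 1.5-fold higher 2 (11.0%). Of this class Cd44, the hyaluronan receptor, fell by 0.82, from 2385 to 1348 CPM. Adam8, a protease of neutrophils, fell by 0.87, and Mmp9, which their tertiary granules carry, had a log2 fold change of −0.39.

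Chromatin regulators were mostly lower. Of 49 histone methyltransferases, demethylases, acetyltransferases and related enzymes 40 were lower and 9 higher. FR17 was the lowest library for 39 of the 49 (31.5% of all and 60.7% of well-expressed genes). At least 1.5-fold lower were 7 of them, a share near the 11.7% of all genes. The median was −0.24, and −0.12 relative to genes of the same level. Hdac4, a histone deacetylase, fell by 1.01, from 151 to 74.9 CPM, with 22.4% of its exon bases opposite a gene that had 0 counts in both libraries. Kdm6b and Kdm7a, which remove repressive histone marks, fell by 0.79 and 0.80, and the acetyltransferase Crebbp by 0.60. Ep300 had a log2 fold change of −0.46.

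Among 26 transcription factors of the granulocyte lineage 16 were lower and 10 higher (median −0.14). Without the 3 that are also markers of other cell types, the median relative to all genes went from −0.16 to −0.34. Mxd1, a repressor induced as neutrophils mature, had 2854 CPM in Ctrl, 2117 in TP5, 4656 in sFD17 and 1395 in FR17, a log2 fold change of −1.03 (−1.05 to −1.01). Ets2 fell by 0.91, from 2415 to 1284 CPM. Gata2, found in basophils, mast cells and progenitors, was higher by 0.74 (15.1 CPM in FR17).

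Transcripts that are not translated were uneven. Of 21 nuclear long non-coding RNAs tested 12 were lower and 9 higher, where 47.7% of all genes were lower, with a median of −0.31 and quartiles of −0.55 and 0.27. Malat1 had 1060 CPM in Ctrl and 707 in FR17, and Mir22hg fell by 0.92 and Mirt1 by 0.94. By the class of transcript in the table, the median was 0.05 for 13505 protein-coding genes, −0.17 for 481 lincRNAs, −0.31 for 481 antisense transcripts, −0.40 for 397 transcripts of the class TEC and −0.73 for 54 miRNA precursors. Sense-intronic transcripts, which lie inside introns, had −0.50 over 52 genes. Median levels were low, at 0.814 CPM for TEC, 0.923 for antisense, 0.684 for miRNA precursors and 0.672 for sense-intronic transcripts. Protein-coding genes had 13.98 CPM. A gene near the count minimum may have entered through 1 library only, so these medians are uncertain. In TP5 these non-coding classes were lower than Ctrl too, at −0.16 for antisense and −0.52 for miRNA precursors, and in sFD17 they were higher. Reads of antisense transcripts may belong to the gene opposite, since the strand setting of the counting is not given.

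**Figure D3:**
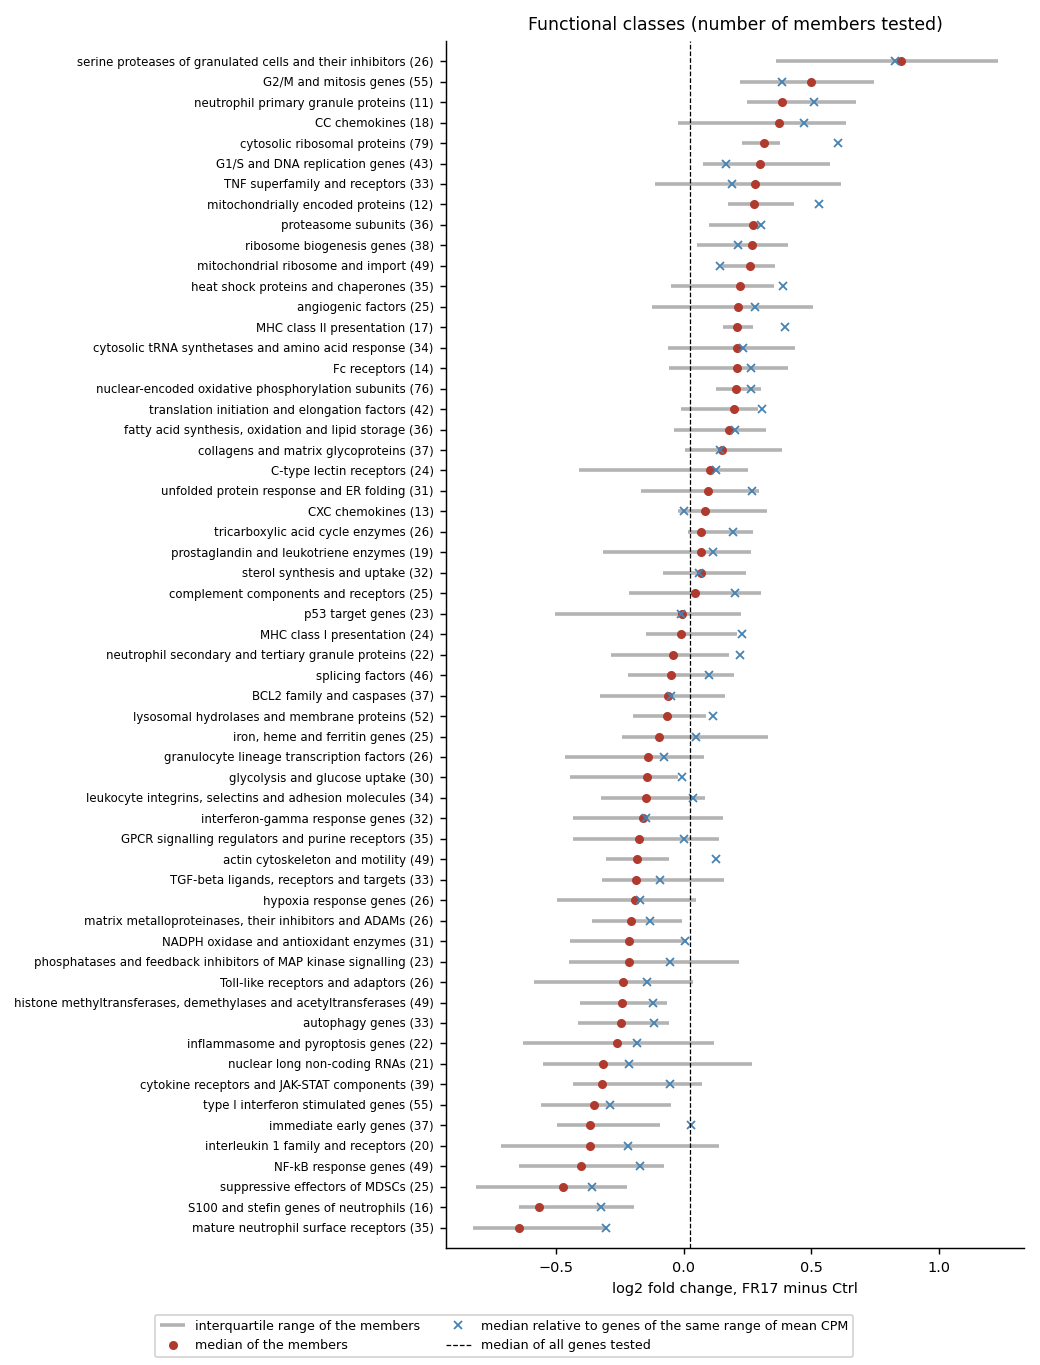
Median log2 fold change of FR17 minus Ctrl for the 58 functional classes (red points), with the interquartile range of the members (grey) and the median relative to genes of the same range of CPM (blue crosses). Neutrophil receptors, S100 and stefin genes, suppressive effectors and NF-κB response genes lie lowest, from −0.65 to −0.40, and serine proteases and mitosis genes highest, at 0.85 and 0.50.

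Ribosomal protein genes were higher in FR17 by a small and even amount. Of 79 cytosolic ribosomal protein genes 76 were higher and 3 lower. FR17 was the highest of the 4 libraries for 68 (33.2% of all and 16.6% of well-expressed genes). The median was 0.31, with quartiles of 0.23 and 0.38. Relative to genes of the same level it was 0.61, because genes with such counts were mostly lower. TP5 and sFD17, against the same Ctrl library, had medians of 0.20 and −0.38. Rpsa, the laminin receptor protein of the small subunit, had 560 CPM in Ctrl, 733 in TP5, 486 in sFD17 and 787 in FR17, a log2 fold change of 0.49 (0.45 to 0.53). Rpl21 rose by 0.80, from 66.0 to 115 CPM, with 65.7 in TP5 and 38.3 in sFD17. The 3 lower genes were Rps10, Fau and Rps9, the last with 1180 and 1159 CPM. Ribosomal protein genes have many processed pseudogenes that may take or give reads.

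Translation factors had 31 higher and 11 lower of 42 (median 0.20), with Eef1a1, the factor that brings tRNAs to the ribosome, at 2964 and 3484 CPM, and Eif5 falling by 0.63. Ribosome biogenesis genes had 30 higher and 8 lower of 38 (median 0.27). Gar1, Pwp2 and Utp20, which process ribosomal RNA, had log2 fold changes of 0.66, 0.66 and 0.61 at 6.45 to 14.7 CPM. Among tRNA synthetases and genes of the amino acid response, 21 of 34 were higher. Phgdh, the first enzyme of serine synthesis, rose by 1.07 (0.87 to 1.29), with 15.6 CPM in Ctrl, 12.9 in TP5, 3.33 in sFD17 and 32.9 in FR17. Chac1 and Sesn2, targets of the stress factor ATF4, were lower, by 0.77 and 0.67.

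Mitochondrial genes had the same direction. Of 76 nuclear-encoded subunits of oxidative phosphorylation 72 were higher and 4 lower, FR17 was highest for 58 (33.2% of all genes), and the median was 0.20. Ndufa5, a subunit of complex I, had 7.10, 9.41, 4.39 and 12.6 CPM in Ctrl, TP5, sFD17 and FR17 with a log2 fold change of 0.82 (0.52 to 1.15), while Atp5b, of the ATP synthase, had 361 and 412 CPM. Genes of the mitochondrial ribosome and import were higher for 43 of 49 tested (median 0.26). All 12 mitochondrially encoded genes tested were higher, with a median of 0.28, where TP5 had 0.58, and FR17 was the highest library for only 2 of them. Enzymes of the tricarboxylic acid cycle were higher for 21 of 26 but by little (median 0.07).

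Proteasome subunits were higher for 32 of 36, with a median of 0.27 and 0 members past 1.5-fold. Psmb10, an immunoproteasome subunit listed here with MHC class I presentation and not among the 36, had a log2 fold change of 0.45. Psme2, of the proteasome regulator, had one of −0.34. Heat shock proteins and chaperones had 26 higher and 9 lower of 35 (median 0.22). Hspa1b and Hspa1a, near copies whose reads can be split, had log2 fold changes of 0.60 and 0.56, and Hsp90ab1 and the chaperonin subunit Cct5 0.31 and 0.47. Genes of the unfolded protein response had 19 higher and 12 lower (median 0.10). Sdf2l1 and Creld2, folding factors, had 0.54 and 0.51, and Ddit3, the death factor CHOP, fell by 0.62.

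Cell cycle genes were higher than in Ctrl at low counts. Of 55 genes of G2/M and mitosis 45 were higher and 10 lower. At least 1.5-fold higher were 23 (11.0% of all genes) and at least 1.5-fold lower 1 (11.7%). The median of these genes was 0.50, and 0.39 relative to genes of the same level. FR17 was the highest library for 10 of them only, since TP5 had a median of 0.72 against the same Ctrl library and sFD17 one of 0.08. Cdc20, which activates the anaphase-promoting complex, had 6.33 CPM in Ctrl, 13.9 in TP5, 8.87 in sFD17 and 12.2 in FR17, a log2 fold change of 0.94 (0.62 to 1.28). Tpx2 and Cenpe, of the spindle and the kinetochore, had log2 fold changes of 0.92 and 0.91, and Cenpm, of the centromere, rose by 1.47 (0.75 to 2.50). Mki67, the usual marker of dividing cells, did not differ in this way, with 82.6 CPM in Ctrl, 126 in TP5, 123 in sFD17 and 80.2 in FR17. Kif23, which completes division, fell by 0.63. The 43 genes of G1/S and replication had 35 higher and a median of 0.30.

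Promoters of mitosis genes carry the element CHR next to CCAAT boxes. The letters TTTGAA or TTCGAA, both strands, stood in 37 of 47 promoters found for 44 of the 55 genes (78.7%), against 19.2% of all promoters. Both the CHR letters and CCAAT stood in 33 (70.2%), against 7.52%. Such shares follow from listing known mitosis genes and were not compared with the fold changes. Cdc20 and Cenpm are shown as members with either form of the element, by the 150 bases before the start on the minus strand at chr4:118437344-118437493 and chr15:82244337-82244486, with both motifs in capitals.
Cdc20: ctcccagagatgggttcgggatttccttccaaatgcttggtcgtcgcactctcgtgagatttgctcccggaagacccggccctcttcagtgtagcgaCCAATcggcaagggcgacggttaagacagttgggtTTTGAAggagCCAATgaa
Cenpm: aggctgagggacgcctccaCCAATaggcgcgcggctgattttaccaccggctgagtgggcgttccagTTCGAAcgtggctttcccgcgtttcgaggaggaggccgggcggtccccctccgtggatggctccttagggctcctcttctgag
Cdc20 has the form TTTGAA and Cenpm the form TTCGAA.

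Genes of lymphocytes were higher in FR17 at levels far below those of neutrophil genes. All 28 markers of natural killer cells were higher, with a median log2 fold change of 1.28. At least 2-fold higher were 23 (3.92% of all genes, 13.5% of those with a mean of 1.16 CPM or less). FR17 was the highest library for 27 of the markers (33.2% of all genes). Their summed level was 299 CPM in FR17, against 137 in Ctrl, 135 in TP5 and 131 in sFD17. Prf1 (perforin), which opens the target membrane, had 3.67, 2.96, 4.70 and 15.3 CPM in Ctrl, TP5, sFD17 and FR17 with a log2 fold change of 2.03 (1.67 to 2.48). Gzma, a granzyme on chromosome 13 from 113093825 to 113100981 (ENSMUSG00000023132, minus strand), had 14.6, 8.38, 10.4 and 47.5 CPM in that order with a log2 fold change of 1.69. The receptors Ncr1 and Klrb1c rose by 1.57 and 1.21, and the transcription factor Eomes by 1.07. Il2rb, the IL-2 and IL-15 receptor chain, rose by 1.35, from 19.2 to 49.0 CPM. Sh2d1b1 and S1pr5 moved least, with 0.28 and 0.33.

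T cell markers were higher for all 28 members, 14 of them at least 2-fold (3.92% of all genes), with a median of 1.06. FR17 was the highest library for all 28 (33.2% of all genes). The summed level was 136 CPM in Ctrl, 115 to 142 in sFD17 and TP5, and 279 in FR17. Cd3e, a chain of the T cell receptor complex, had 1.83 CPM in Ctrl, 2.11 in TP5, 1.89 in sFD17 and 6.67 in FR17, a log2 fold change of 1.80 from 31 and 153 counts. Lck and Lat, which pass on its signal, rose by 1.27 and 1.24. Foxp3 of regulatory T cells and Trdc of γδ T cells rose by 1.78 and 2.07, from 0.592 and 0.888 CPM. Cd4 and Cd8a had log2 fold changes of 0.49 and 0.65, and macrophages and dendritic cells can also carry Cd4. The T and natural killer markers are not expressed by neutrophils as a rule, and how many such cells were in the sorted pools was not tested.

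Genes of group 2 innate lymphoid and type 2 helper cells were higher for 22 of 23 tested, with a median of 0.82. At least 2-fold higher were 10 (3.92% of all genes), and the 1 lower gene was at least 2-fold lower (3.58%). Gata3, the factor that defines them, had 1.24, 2.00, 2.50 and 4.79 CPM in Ctrl, TP5, sFD17 and FR17 with a log2 fold change of 1.85 (1.26 to 2.69). Il2ra, the high-affinity IL-2 receptor chain, rose by 2.06, and TP5 and sFD17 were near FR17 there, with 4.28 and 3.86 against 5.32 CPM. Icos rose by 1.43. Il13 was at 0.610 CPM or less in both libraries.

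Serine proteases of granulated cells and their inhibitors were the highest of the 58 classes, with a median of 0.85. Of 26 tested 21 were higher and 5 lower, and 12 were at least 2-fold higher (3.92% of all genes). Of the 26 genes, 11 are also markers of cells other than neutrophils, and without them the median relative to all genes went from 0.83 to 0.42, which is below that of mitosis genes (0.48). Beside Prf1 and Gzma, Serpinb6b rose by 1.70 and the basophil protease Mcpt8 by 1.99, from 1.07 to 4.57 CPM with 3.25 in TP5. Basophil and mast cell markers had 17 higher and 4 lower of 21 tested, a median of 0.74 and 8 at least 2-fold higher (3.92% of all genes). Their summed level was lower all the same, at 4326 CPM in Ctrl and 2337 in FR17. Hdc, which makes histamine and which neutrophils also express, and Ifitm1 took 96.3% of that sum in Ctrl and fell by 0.91 and 1.23, and without both the ratio of the sums was 1.07.

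Eosinophil markers were uneven, with 7 higher and 4 lower of 11 tested, and their summed level was lower, at 1029 CPM in Ctrl and 655 in FR17. The granule genes Prg2 and Epx rose by 2.50 and 2.57, from 1.12 to 6.88 and from 0.118 to 1.26 CPM, the latter with an interval of 1.43 to 6.53, while Siglecf had 52.0 and 53.1 CPM. The Epx value in Ctrl rests on counts under the floor of 3.

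Macrophage genes were higher in FR17 than in Ctrl, and lowest in sFD17. Of 16 alveolar macrophage markers 15 were higher, with a median of 0.52, and the summed level was 4321 CPM in Ctrl, 4080 in TP5, 2736 in sFD17 and 5532 in FR17. Krt79, a keratin of these cells, rose by 0.69 and had 52.8, 29.3, 4.17 and 85.1 CPM in that order. Cidec, a lipid droplet protein, had 29.8, 20.4, 5.00 and 48.8 CPM. Atp6v0d2, a proton pump subunit, went from 72.0 to 104 CPM with 5.68 in sFD17. For these genes sFD17 was the lowest and FR17 the highest library. Of 22 markers of interstitial and tissue-resident macrophages 21 were higher (median 0.25), with C1qa, of the first complement component, at 726 and 896 CPM.

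**Figure D4:**
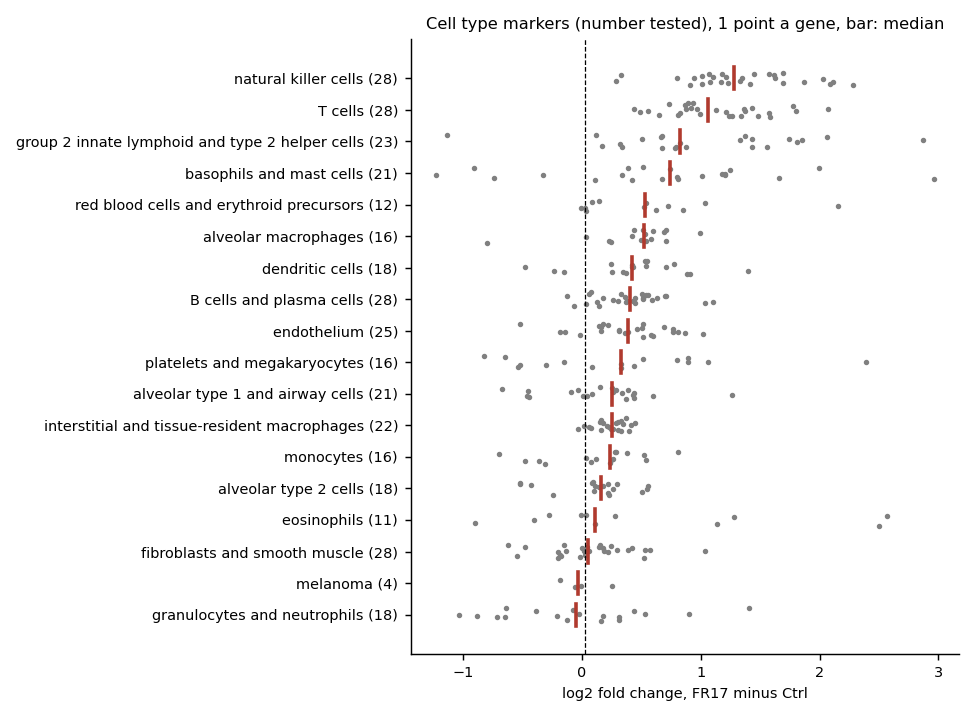
Log2 fold change of FR17 minus Ctrl for each tested member of 18 cell type marker lists (grey points), with the median of each list as a red bar and the median of all genes as a dashed line. Natural killer and T cell lists lie wholly to the right of 0, with medians of 1.28 and 1.06, and the neutrophil list is centred on −0.05.

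Marker lists of other cell types had medians mostly above 0. They were 0.42 for dendritic cells, 0.41 for B and plasma cells, 0.39 for endothelium, 0.53 for red blood cells and 0.33 for platelets, 0.24 for monocytes, 0.16 and 0.25 for alveolar type 2 and for type 1 and airway cells, and 0.05 for fibroblasts and smooth muscle. The summed level of the platelet list was lower in FR17, at 0.933 of Ctrl without Thbs1. Of 14 melanoma markers 10 were under the count minimum and 6 were at 0 counts in Ctrl and in FR17. Collagens and matrix glycoproteins, which neutrophils hardly make, had 29 higher and 8 lower of 37 tested (median 0.15). Thbs1, a matrix glycoprotein of platelets and activated myeloid cells, fell by 0.65, from 3605 to 2304 CPM.

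The classes not yet named differed from each other. TNF superfamily members and receptors had 22 higher and 11 lower of 33 tested and 7 at least 2-fold higher (3.92% of all genes). Their median of 0.28 became −0.11 relative to all genes without members under 5 CPM. In that class Cd40lg, Fasl and Tnfrsf4 of lymphocytes were higher, by 1.75, 1.42 and 1.02, and Tnfsf14 (LIGHT) fell by 0.97, from 193 to 98.4 CPM. Angiogenic factors had 18 higher and 7 lower (median 0.21), and the median relative to all genes went from 0.19 to 0.38 without the 6 that are also markers of other cell types. Vegfa and Thbs1 were lower, and the summed level in FR17 was 0.674 of that in Ctrl. Fatty acid and lipid storage genes had a median of 0.18, sterol genes 0.07, complement 0.04, prostaglandin and leukotriene enzymes 0.07, p53 targets −0.01, splicing factors −0.05, BCL2 family and caspases −0.06, TGF-β genes −0.19, and metalloproteinases −0.21. Mcl1, the survival factor on which neutrophils depend, fell by 0.68, from 4351 to 2709 CPM.

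Few well-expressed genes rose. The 17 past 1.5-fold include Rpl21, Tmsb10, Ccl7, S100a10, Hspa1b and Krt79 above, Plet1 and Krt19 of alveolar macrophages or epithelium, and Eln (elastin), which had 51.7, 36.9, 48.6 and 85.1 CPM. Lars2 rose by 0.78 and the ribosomal RNA gene CT010467.1 and the miRNA gene Gm23935 by 0.77 and 0.76. CT010467.1 shares 73.9% of its exon bases with a gene on the opposite strand and 37.4% with one on the same strand. Among the falls outside the classes, Cpeb2, a regulator of translation, fell by 1.21, from 243 to 105 CPM, Pde7b, a cAMP phosphodiesterase, by 1.48 (51.6 to 18.4 CPM), Homer1, a scaffold protein, by 1.05, and Rnf149, a ubiquitin ligase, by 1.13.

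FR17 lay outside the other 3 libraries by at least 1.5-fold for 642 genes above (3.92%) and 680 below (4.15%). With a mean of at least 20 CPM, 20 of these were above and 167 below. Those above include Gzma, Eln, Krt19, Gimap4, a GTPase of lymphocytes that went from 13.6 to 27.8 CPM, and Tfec, a myeloid transcription factor that went from 20.3 to 33.6 CPM. Slc7a11, Pde7b, Homer1, Rsad2 and Dhrs9, a retinol dehydrogenase with 153 CPM in Ctrl and 81.4 in FR17, were among those below. With library size alone, 1540 genes lay above and 281 below the other 3 libraries. The 3 other libraries are different treatments and not replicates, so these counts only place FR17 among them.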

How the data were processed

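The mRNA of CD11b+Ly6g+ cells from 4 groups of mice was sequenced after TRIzol extraction and a strand-specific NEBNext kit. The authors deposited raw counts of reads per gene, without normalization. The submitters' processing notes name HISAT2 2.0.5, StringTie 1.3.3b, featureCounts 1.5.0-p3, edgeR 3.18.1 and GRCm38.p6, and the strand setting of the counting is not given in the sources used here. Columns were matched to samples by group name, and 0 sample columns were left unmatched.

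The counts were scaled with TMM in edgeR 4.0.16 under R 4.3.3, over 4 libraries, and tables were made with pandas 2.3.3 and scipy 1.17.1. The Clopper-Pearson interval of a pair of counts has a level of 95%. The 58 class lists and the 18 cell type lists hold genes from general knowledge. They and the comparison were chosen with earlier results of these data known. For the 100 symbols that stand on several rows, the row with the highest total was kept. Named genes were, in each class, the one with the highest mean and the 3 with the largest change at 50 counts or more, the 15 largest rises and falls among well-expressed genes, and the 10 largest in each direction outside the other 3 libraries at 20 CPM or more. Other members were named after their values were seen. Some genes selected in this way are not reported. Alternatives were DESeq2 1.42.0 size factors, library size alone, other filters, a prior count of 0.5 and other level limits. The calculation of fold changes was checked on simulated counts with known folds and no variation between pools. Such counts cannot show how far pools differ without treatment.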

Additional observations from a re-analysis of the deposited data

How the results depend on the processing

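DESeq2 size factors and a prior count of 0.5 left every number of genes within 1.5 times the reported one. With library size alone, 1091 genes were at least 2-fold higher and 316 lower, 171 well-expressed genes were at least 1.5-fold higher and 116 lower, and 1540 lay above and 281 below the other 3 libraries. No filter on low counts gave 1455 higher and 1436 lower genes at 2-fold, 37 higher well-expressed genes and 1566 above the other libraries. At least 10 counts in every library gave 172 and 276 at 2-fold, and 317 above and 429 below. At 1.5-fold relative to the median gene 11 well-expressed genes were higher. With the limit for well-expressed genes at 20 CPM 50 were higher, and at 200 CPM 3 were higher and 213 lower.

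Another scaling shifts nearly all genes by the same amount, so class medians relative to the median gene could hardly change. Their largest shift with library size alone was 0.03, which is no check of the scaling. Without members under 5 CPM, relative to all genes, the TNF superfamily was at −0.11, complement at −0.0136 (also without markers of other cell types) and prostaglandin and leukotriene enzymes at −0.0024, against medians above 0, and BCL2 family and caspases went from −0.087 to −0.18 and primary granules from 0.36 to 0.22. With no filter on low counts p53 targets were at 0.00098. Relative to genes of the same range of CPM, an alternative added after seeing the data, 10 class medians turned from below to above. These were oxidase and antioxidant genes (0.0033), immediate early genes (0.0285), lysosomal genes (0.12), actin and motility (0.13), GPCR regulators (0.0013), iron genes (0.0492), and secondary granules, MHC class I, adhesion molecules and splicing, given next. By that reference the medians were 0.22 for secondary granules, −0.31 for neutrophil receptors, −0.17 for NF-κB, 0.23 for MHC class I, 0.40 for class II, 0.61 for ribosomal proteins, 0.31 for translation factors, 0.26 for oxidative phosphorylation, 0.14 for the mitochondrial ribosome, 0.20 for the tricarboxylic acid cycle, −0.0072 for glycolysis, 0.30 for proteasome, −0.12 for autophagy, 0.39 for chaperones, 0.27 for the unfolded protein response, 0.0349 for adhesion molecules, −0.12 for chromatin enzymes and 0.10 for splicing. The cause of these shifts was not tested beyond the level of the genes.

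No paired analysis was possible because each group has 1 library. The depth limits the genes under 50 counts, for which the intervals are wide, and 1 pool per group limits every difference.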
